A study of Mus musculus with 21 samples.

Results

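The comparison described here is the wild-type step from haematopoietic stem cells to the FLK2-positive multipotent progenitors called MPP4, measured as RNA in bone marrow cells sorted by flow cytometry. It uses 6 of the 21 libraries of a study of a homozygous mutation in Etv6, which encodes an ETS-family factor that represses transcription. The 3 MPP4 libraries came from cells labelled lineage-negative, cKit-positive, Sca1-positive and FLK2-positive. The 3 HSC libraries came from cells with the same lineage, cKit and Sca1 labels but without FLK2, with CD150 and labelled negative for CD38. All 6 libraries came from wild-type bone marrow with no treatment named. The replicate numbers were taken as mice. In both populations mouse 1 was a female of 12 weeks, mouse 2 a male of 12 weeks and mouse 3 a female of 10 weeks. The same step in mice homozygous for the Etv6 mutation, written h.P214L in the series' design text, has 4 MPP4 and 4 HSC libraries from bone marrow of mice 10 or 12 weeks old and is used once, at the end. Values are RPKM, read numbers scaled to the length of a transcript and to the reads its library mapped. Differences are MPP4 minus HSC on the log2(RPKM + 1) scale, and standard errors come from a fit to all 21 libraries. Of 11628 genes in the table, 11237 reached at least 1 RPKM in 3 or more of the 6 libraries and were kept.

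Haematopoietic stem cells sit at the top of blood formation, divide rarely and can rebuild all blood lineages after transplantation. Multipotent progenitors have lost lasting self-renewal but still give rise to several lineages. The MPP4 subset carries the receptor tyrosine kinase FLK2 (the product of Flt3), is biased toward lymphoid and away from megakaryocyte and erythroid fates, and feeds the common lymphoid progenitor. In bulk RNA, fewer cells of a type and less RNA per cell cannot be told apart.

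Promoters of the 2 most raised and the 2 most lowered genes of the step with an eligible promoter entry are printed because these genes mark its extremes. They run from 250 bases before to 50 bases after the annotated start (RefSeq, GRCm38.p6) and read 5′ to 3′ along the gene's strand. Dntt encodes a polymerase that adds untemplated bases at antigen-receptor joints, and Mpo encodes the peroxidase of myeloid granules. Trim47 encodes a TRIM-family ubiquitin ligase, and Nupr1 encodes a small stress-induced chromatin protein. Dntt lies at chr19:41029025-41029324 on the plus strand, Mpo at chr11:87793534-87793833 on the plus strand, Trim47 at chr11:116110186-116110485 on the minus strand and Nupr1 at chr7:126625421-126625720 on the minus strand. Capitals mark, on either strand, GGAA (the core bound by ETS factors), GATAA (GATA factors), CANNTG (the E-box of basic helix-loop-helix factors) and TGTGGT (RUNX factors). Runs of capitals longer than one motif are overlapping or adjoining matches, as near the start of the Nupr1 window.
Dntt: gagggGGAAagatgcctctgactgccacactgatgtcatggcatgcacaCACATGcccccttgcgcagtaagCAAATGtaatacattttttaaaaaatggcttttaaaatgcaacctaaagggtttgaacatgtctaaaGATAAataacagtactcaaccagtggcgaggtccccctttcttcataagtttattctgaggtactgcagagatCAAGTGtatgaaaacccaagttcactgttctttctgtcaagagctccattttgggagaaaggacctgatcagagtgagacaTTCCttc
Mpo: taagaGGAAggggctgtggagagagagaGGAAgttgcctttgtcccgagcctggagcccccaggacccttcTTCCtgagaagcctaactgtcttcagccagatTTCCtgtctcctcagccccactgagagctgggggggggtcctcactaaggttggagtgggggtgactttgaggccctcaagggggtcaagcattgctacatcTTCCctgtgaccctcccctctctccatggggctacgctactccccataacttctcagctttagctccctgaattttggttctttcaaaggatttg
Trim47: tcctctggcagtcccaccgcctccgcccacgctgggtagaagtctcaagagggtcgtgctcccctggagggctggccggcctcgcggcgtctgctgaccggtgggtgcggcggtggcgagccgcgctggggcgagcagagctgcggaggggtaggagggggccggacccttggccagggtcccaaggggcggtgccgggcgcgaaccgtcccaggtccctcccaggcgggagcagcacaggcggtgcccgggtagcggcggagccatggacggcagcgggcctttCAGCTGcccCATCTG
Nupr1: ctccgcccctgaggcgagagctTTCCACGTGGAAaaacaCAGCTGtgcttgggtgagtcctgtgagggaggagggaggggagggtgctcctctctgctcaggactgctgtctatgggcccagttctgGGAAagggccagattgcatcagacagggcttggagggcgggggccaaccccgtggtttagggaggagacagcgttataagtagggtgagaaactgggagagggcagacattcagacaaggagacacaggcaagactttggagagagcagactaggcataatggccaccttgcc
The Mpo window held 5 matches of GGAA and 0 of the other motifs. Both raised genes had few CpG dinucleotides, with observed-to-expected ratios of 0.149 for Dntt and 0.087 for Mpo, while the lowered genes differed from one another, at 0.709 for Trim47 and 0.252 for Nupr1.

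Of the 11237 genes, 4453 (39.6%) were called at an adjusted p under 0.05. Of these, 1809 (16.1% of genes tested) were higher and 2644 (23.5%) lower in MPP4. Every list count below is to be read against these shares, and the lists were chosen with earlier results of these data known. With 39.6% of genes called, calls in both directions within a list are by themselves no result about its members. A log2 difference of at least 1 was reached by 550 higher genes (4.89%) and 837 lower genes (7.45%), one of at least 3 by 60 and 68 genes, and one of at least 5 by 5 and 3 genes. Of the called genes, 4431 moved the same way in all 3 mice, and in 4297 the MPP4 and HSC values did not overlap, against 5736 (51.0%) of all genes tested. Genes present in one population alone were fewer: 121 genes reached 1 RPKM in all MPP4 libraries and in 0 HSC libraries, and 259 did the reverse. Such genes passed the filter only through the population where they were high, so the 115 called higher and the 243 called lower among them are no support for the step, and their values are given without a p. List counts below include such genes, and to that extent are no support either. Of genes described below, those that passed only through MPP4 include Ctsg, Kcng1, Rag2, Tlr7, Cox6a2, Ccr7 and Mycl. Those that passed only through HSC include Tcf15, Sox18, Cdkn1c, Gadd45g, Hoxb5, Fzd8, Sfrp1, Zbtb16, Grb10 and Phlda2. Lower calls were the more frequent among less abundant genes and higher calls among abundant ones. When genes were cut by mean RPKM into 4 bins of equal size, 11.78% of the lowest bin were higher and 31.67% lower, and in the highest bin 23.67% were higher and 16.84% lower. After quantile normalization the called genes split into 2171 higher and 2139 lower.

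**Figure D1:**
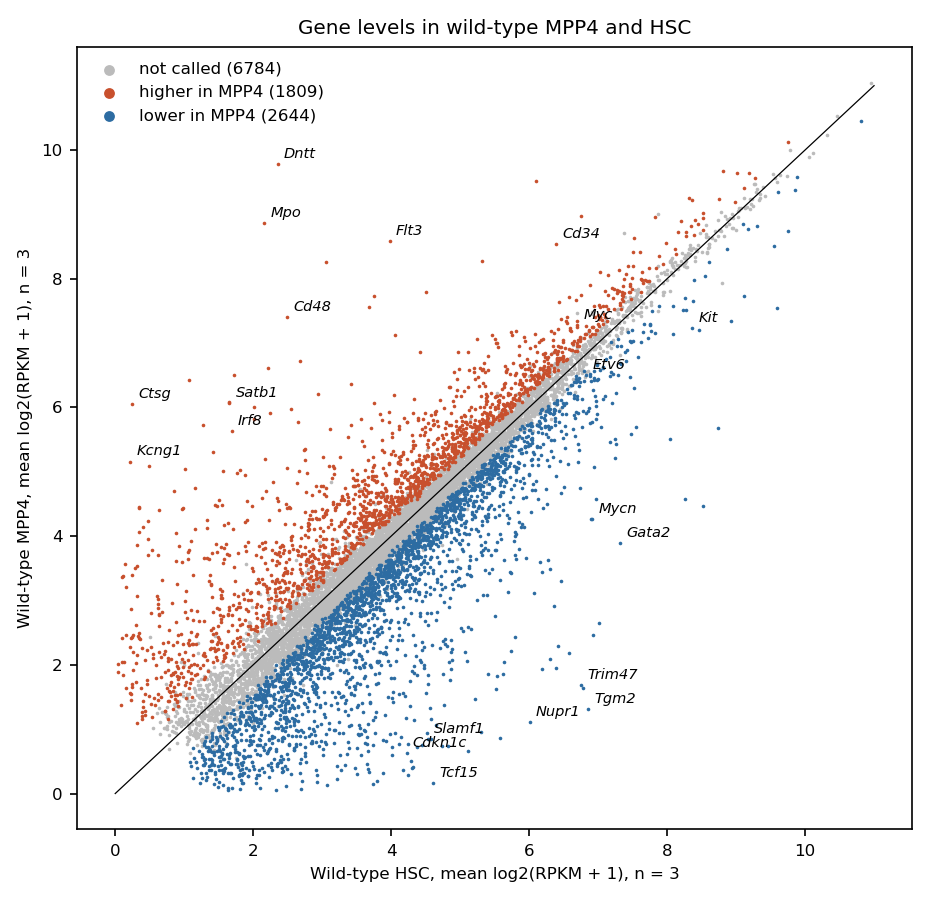
Mean level of each kept gene in wild-type MPP4 (y axis) and HSC (x axis), both log2(RPKM + 1) over 3 libraries, with 1809 genes called higher in MPP4 in orange and 2644 called lower in blue. The line marks equal levels; Dntt and Mpo lie farthest above it, and Tgm2 farthest below it.

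The libraries were alike in scale. RPKM summed to 353966 to 366363 in MPP4 and 347763 to 372698 in HSC, and libraries of one population correlated at 0.965 to 0.988 over genes on the log2 scale, against 0.854 to 0.903 between populations. The files hold no read counts, so depth is unknown. HSC of mouse 3 stood farthest from the MPP4 libraries. Transcripts of the neutrophil granule list summed to 1004 to 1594 RPKM in MPP4. In HSC of mice 1, 2 and 3 they summed to 679, 2327 and 724 RPKM, so HSC of mouse 2 stood apart there.

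Transcripts of the sorting markers followed most of the labels. Flt3 was read at 416, 349 and 387 RPKM in MPP4, against 14.7, 16.9 and 13.04 RPKM in HSC, and Cd48, a SLAM-family protein that HSC lack, at 148, 179 and 180.2 RPKM in MPP4, against 5.42, 5.25 and 3.46 RPKM in HSC. Neither gene's groups overlapped. Slamf1, which encodes CD150, had 0.335, 1.40 and 0.810 RPKM in MPP4, against 18.8, 20.3 and 28.6 RPKM in HSC. FLK2 and CD150 were sorted on, so the differences of Flt3 and Slamf1 follow the gate and are no support for the step. Flt3 is also counted below among lymphoid signalling, cytokine receptor and dendritic cell genes. Kit was lower in MPP4, although both populations were sorted as cKit-positive, with 160, 164 and 128 RPKM in MPP4, against 374, 350.5 and 272 RPKM in HSC (log2 difference -1.13 ± 0.14, adjusted p = 2.82e-06). Ly6a, which encodes Sca1, did not pass the test (log2 difference -0.50 ± 0.33, adjusted p = 0.245), and its difference lay between -0.84 and -0.09 when single libraries were left out. Cd38 transcript was lower in MPP4 than in the HSC labelled CD38-negative, with 1.42, 1.53 and 2.06 RPKM in MPP4 and 7.78, 6.88 and 10.5 RPKM in HSC. The gate itself could not be checked from RNA: if CD48-negative rather than CD38-negative cells were sorted, the low Cd48 in HSC would be set by the gate. Cd34, a sialomucin that rises as stem cells become progenitors, was higher in MPP4, with 393, 369 and 349 RPKM in MPP4, against 92.3, 89.3 and 68.99 RPKM in HSC.

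Other SLAM-family receptors moved both ways. Cd244 (2B4) had 15.6, 22.3 and 16.7 RPKM in MPP4, against 1.94, 2.17 and 0.689 RPKM in HSC (log2 difference 2.92 ± 0.21, adjusted p = 1.5e-09). Ly9 (CD229) had 27.1, 26.8 and 25.4 RPKM in MPP4, against 7.15, 7.91 and 4.85 RPKM in HSC. Cd244, Ly9 and Cd48 are neighbours at chromosome 1, 171558718 to 171705258 (GRCm38), and all were higher in MPP4. Cd84, a SLAM-family receptor, was lower like Slamf1, with 11.3, 8.23 and 9.99 RPKM in MPP4, against 15.1, 13.3 and 15.4 RPKM in HSC (log2 difference -0.54 ± 0.16, adjusted p = 0.0132). Of the 11 kept genes of the gate and SLAM list, 6 were higher and 4 lower.

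The largest gain belonged to Dntt (chromosome 19, 41029275 to 41059525), with 847, 765 and 1055 RPKM in MPP4, against 4.49, 5.06 and 3.01 RPKM in HSC (log2 difference 7.43 ± 0.20, adjusted p = 9.4e-16). Behind it came genes of myeloid granules. Mpo had 463, 544 and 396 RPKM in MPP4, against 3.63, 4.24 and 2.67 RPKM in HSC, and Ctsg, which encodes the granule protease cathepsin G, had 68.04, 88.01 and 46.2 RPKM in MPP4, against 0.113, 0.478 and 0 RPKM in HSC. Every MPP4 library lay above every HSC library for Mpo, while for Ctsg this followed from how it passed the filter. Kcng1, a potassium channel modifier subunit, was read at 31.2, 37.6 and 35.6 RPKM in MPP4, against 0.292, 0.104 and 0.107 RPKM in HSC. Satb1, a chromatin organiser needed for early lymphoid development, was read at 56.2, 65.1 and 79.3 RPKM in MPP4, against 1.36, 2.22 and 3.09 RPKM in HSC. Cnn3, a calponin that binds actin, had a log2 difference of 4.79, Wfdc17 of 5.20, BC035044 of 5.36, Tespa1, an adaptor of T-cell receptor signalling, of 4.46, and Cst7, the cathepsin inhibitor cystatin F, of 4.44. All 5 were called higher, with groups that did not overlap.

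Lymphoid transcription factors were more often higher than lower. Of 33 kept factors, 20 were higher and 6 lower, against 16.1% and 23.5% of all genes, with a median log2 difference of 0.52, against -0.06 over all genes. After Satb1 the largest was Irf8, a factor of dendritic cell and monocyte development, with 50.1, 45.9 and 50.3 RPKM in MPP4, against 1.91, 2.57 and 2.23 RPKM in HSC. Nfil3, needed for natural killer and innate lymphoid cells, had a log2 difference of 2.01. Among the 6 lower factors were some of T and innate lymphoid cells. Gata3, the T-cell and type 2 innate lymphoid factor, fell, with 2.04, 1.55 and 1.27 RPKM in MPP4, against 8.99, 9.93 and 12.6 RPKM in HSC, and Zbtb16, which encodes PLZF, fell by 1.71 on the log2 scale. In the separate list of T, NK and innate lymphoid genes, 6 of 15 were higher and 5 lower, and the lower count was 3 without both libraries of mouse 2.

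On the list of lymphoid signalling and receptor genes, 33 of 48 were higher and 3 lower (median 1.05). This list was chosen with earlier results known. It also holds Wfdc17, Cnn3 and Flt3, the last of which was sorted on. Il7r, the receptor chain for interleukin 7, had 7.37, 12.2 and 15.3 RPKM in MPP4, against 0.893, 1.98 and 0.308 RPKM in HSC. Blnk, an adaptor of the B-cell receptor, had 17.7, 16.5 and 32.95 RPKM in MPP4, against 1.20, 1.94 and 2.85 RPKM in HSC, and Lck, a kinase of T-cell receptor signalling, had 36.05, 40.04 and 42.9 RPKM in MPP4, against 6.45, 5.04 and 5.48 RPKM in HSC. Parts of the receptors themselves did not show this: Cd79a (log2 difference 0.29 ± 0.57, adjusted p = 0.729) and Vpreb1 (log2 difference -0.20 ± 0.51, adjusted p = 0.785), from the B-cell receptor and its precursor, did not pass the test. Rag2, one of the paired recombinase genes, had 11.7, 17.4 and 22.6 RPKM in MPP4, against 0.299, 0.742 and 0.0360 RPKM in HSC. Rag1, its partner, failed the filter, with 0.60, 1.86 and 3.05 RPKM in MPP4, against 0.236, 0.270 and 0.0550 RPKM in HSC, and Ebf1, the B-lineage determinant, failed it with 0.770, 1.004 and 0.943 RPKM in MPP4, against 0.448, 0.423 and 0.136 RPKM in HSC. Ltb, which encodes lymphotoxin beta, went against the list, with 18.9, 15.3 and 19.03 RPKM in MPP4, against 40.9, 45.5 and 97.7 RPKM in HSC, and Rgs18, a regulator of G-protein signalling, fell by 0.83.

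Genes of dendritic cells and class II presentation were mostly higher, and those of monocytes and macrophages were higher in 10 of 21. Of 24 genes of dendritic cells and class II presentation, 16 were higher and 1 lower, and of the monocyte and macrophage genes 1 was lower and 10 were not called. The lower monocyte count was 2 with the replicate block, and 0 without MPP4 of mouse 2 or 3 or HSC of mouse 3. Csf1r, the receptor for macrophage colony-stimulating factor, had 32.02, 23.8 and 39.9 RPKM in MPP4, against 1.69, 2.66 and 1.60 RPKM in HSC. Cebpa, a factor that directs granulocyte and monocyte fate, had 13.8, 9.39 and 15.03 RPKM in MPP4, against 1.45, 0.636 and 1.22 RPKM in HSC. Tlr7, an endosomal RNA sensor, had 12.7, 10.8 and 18.2 RPKM in MPP4, against 0.356, 0.350 and 0.060 RPKM in HSC, and Cox6a2, a cytochrome oxidase subunit, had 25.5, 32.4 and 43.5 RPKM in MPP4, against 0.683, 0.182 and 0.375 RPKM in HSC. H2-Ob, a chain of the peptide-loading regulator H2-O, had a log2 difference of 3.43. The groups did not overlap for Csf1r, Cebpa and H2-Ob, while for Tlr7 and Cox6a2 this followed from how they passed the filter. The macrophage complement genes C1qa (log2 difference -0.40 ± 0.58, adjusted p = 0.624) and C1qb (log2 difference -0.41 ± 0.64, adjusted p = 0.648) did not pass the test. Their levels were 7.88, 4.58 and 7.89 RPKM in MPP4 and 6.76, 7.64 and 14.03 RPKM in HSC, and 14.5, 12.9 and 14.9 RPKM in MPP4 and 15.3, 14.8 and 30.1 RPKM in HSC.

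Stem cell transcription factors were mostly lower in MPP4. Of 49, 37 were lower and 4 higher, and the median log2 difference was -1.19. The higher count was 2 without HSC of mouse 2 or with only the 6 wild-type libraries. Tcf15, a basic helix-loop-helix factor of quiescent stem cells, had 0.139, 0 and 0.232 RPKM in MPP4, against 19.4, 20.1 and 33.1 RPKM in HSC. Gata2, needed for stem cell survival, had 18.02, 14.96 and 9.86 RPKM in MPP4, against 156, 164 and 154 RPKM in HSC (log2 difference -3.42 ± 0.21, adjusted p = 1.57e-10), and Gata1, its erythroid and megakaryocyte relative, had 3.49, 3.20 and 0.812 RPKM in MPP4, against 21.4, 28.1 and 17.9 RPKM in HSC. Gata1, Gata2 and Gata3 were thus all lower in MPP4. Ndn, an imprinted growth suppressor, had 1.72, 1.91 and 4.71 RPKM in MPP4, against 33.4, 45.1 and 61.02 RPKM in HSC, and Sox18, a factor shared with endothelium, had 0.718, 0.278 and 0.20 RPKM in MPP4, against 8.77, 11.03 and 15.8 RPKM in HSC. Against the list, Gfi1, a transcriptional repressor needed in granulocyte and lymphoid development, had 9.45, 16.1 and 15.9 RPKM in MPP4, against 1.11, 3.64 and 4.17 RPKM in HSC. Bcl6, a germinal-centre repressor, had 5.19, 2.96 and 4.08 RPKM in MPP4, against 1.20, 1.39 and 1.20 RPKM in HSC. Gfi1 and its close relative Gfi1b thus moved in opposite directions, since Gfi1b fell by 1.76 on the log2 scale. Hoxa9 rose by 0.39, while Hoxb5, a gene of long-term stem cells, had a log2 difference of -2.62. Etv6, the gene the series mutates, was abundant in both and a little lower in MPP4, with 88.4, 95.6 and 84.3 RPKM in MPP4, against 108, 121 and 109 RPKM in HSC (log2 difference -0.33 ± 0.09, adjusted p = 0.00495).

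Surface and signature genes of stem cells showed the widest loss. Of 54, 48 were lower and 1 higher, with a median of -2.28. Tgm2, a transglutaminase, was read at 1.68, 1.37 and 1.39 RPKM in MPP4, against 101, 116 and 129.7 RPKM in HSC (log2 difference -5.55 ± 0.24, adjusted p = 4.37e-13), the largest loss of the step. Esam, an endothelial adhesion molecule of stem cells, had 3.05, 2.13 and 1.41 RPKM in MPP4, against 99.8, 97.5 and 132 RPKM in HSC. Trim47 had 1.84, 3.50 and 1.62 RPKM in MPP4, against 72.5, 104 and 164 RPKM in HSC, and Nupr1 had 2.06, 0.288 and 1.55 RPKM in MPP4, against 50.5, 79.2 and 63.1 RPKM in HSC. Aldh1a1, the retinaldehyde dehydrogenase behind a common stem cell stain, had 1.33, 0.665 and 0.532 RPKM in MPP4, against 61.2, 42.1 and 40.1 RPKM in HSC. The groups did not overlap in any of these 5. Slc18a2, a vesicular monoamine transporter, fell by 4.38, Scarf1, a scavenger receptor, by 4.21, and Grb10, an imprinted adaptor that dampens growth-factor signalling, by 4.46 on the log2 scale. Calcrl, a receptor of the calcitonin family, went the other way, with 62.4, 63.05 and 59.1 RPKM in MPP4, against 41.9, 27.1 and 34.5 RPKM in HSC.

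Genes shared with megakaryocytes and platelets fell too: 26 of 34 were lower and 1 higher, with a median of -2.15. The higher one was Plek, pleckstrin, which lost its call without MPP4 of mouse 1 or HSC of mouse 3. It also lost its call when only the 6 wild-type libraries were fitted. Itga2b, the platelet integrin CD41, had 5.74, 1.57 and 0.674 RPKM in MPP4, against 47.8, 59.7 and 31.4 RPKM in HSC (log2 difference -3.90 ± 0.71, adjusted p = 0.000197), and Mmrn1, a platelet granule protein, had 4.05, 5.76 and 3.86 RPKM in MPP4, against 134, 108 and 123 RPKM in HSC. Gp9, part of the platelet receptor for von Willebrand factor, had 10.5, 5.33 and 7.86 RPKM in MPP4 and 66.5, 59.1 and 73.7 RPKM in HSC. Pf4, platelet factor 4, did not follow this pattern in every library. Its levels were 150.2, 1.99 and 1.10 RPKM in MPP4 and 94.6, 121 and 57.1 RPKM in HSC, so MPP4 of mouse 1 lay above all HSC libraries (log2 difference -3.16 ± 1.07, adjusted p = 0.0241). Thbs1, a platelet thrombospondin, was also highest in that library, with 56.5, 1.59 and 24.9 RPKM in MPP4 and 29.9, 3.06 and 12.9 RPKM in HSC (log2 difference 0.38 ± 1.10, adjusted p = 0.812). The part of platelet RNA in that library was not tested.

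**Figure D2:**
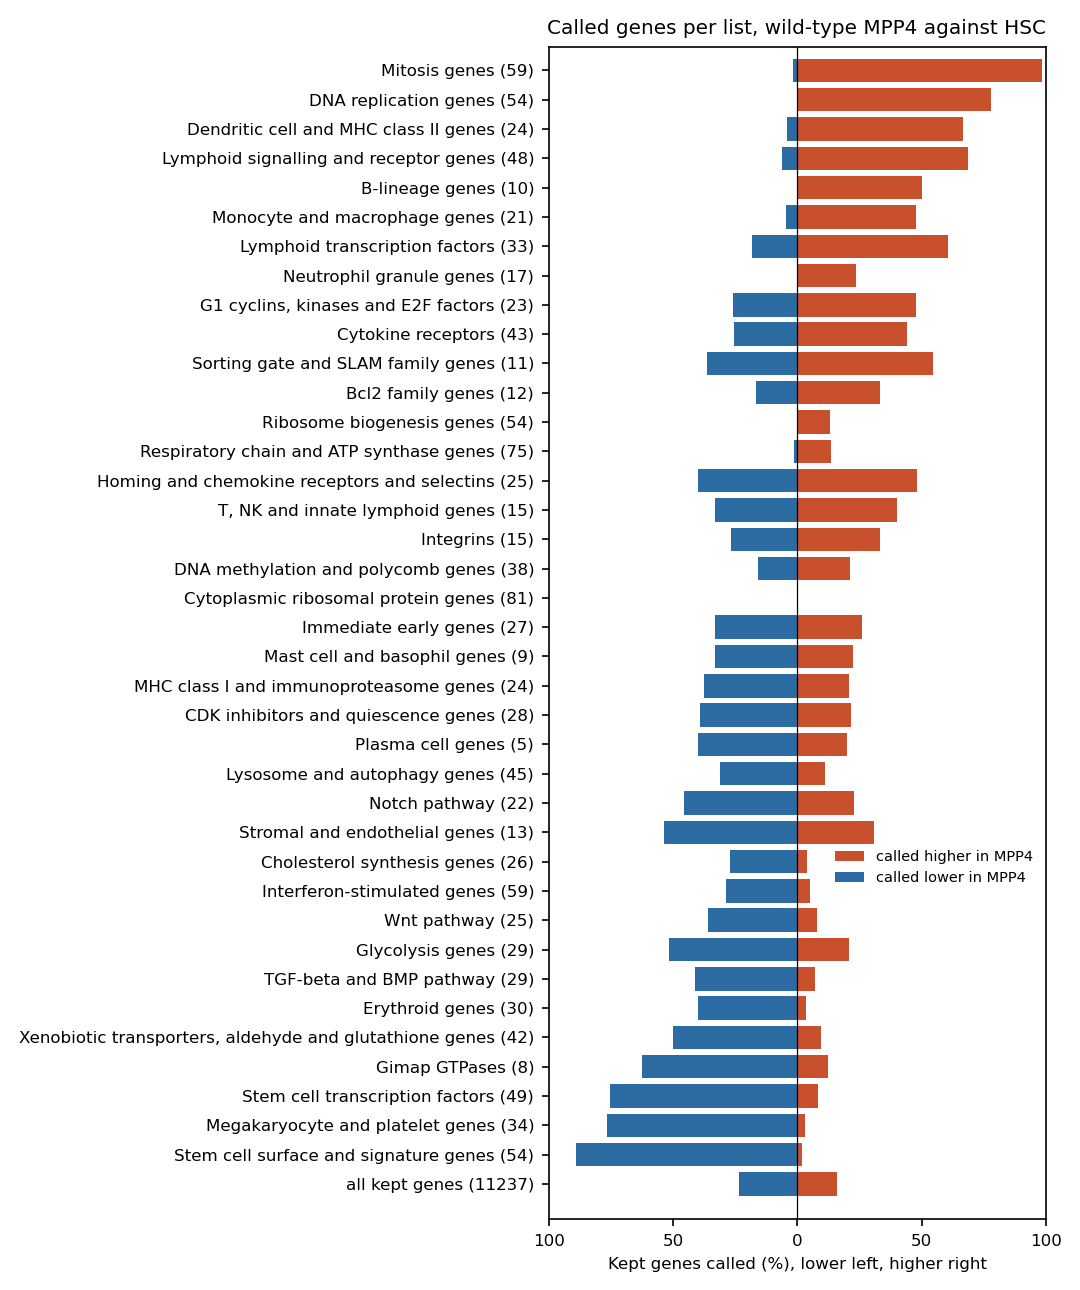
Percent of kept genes of each list called higher (orange, to the right) or lower (blue, to the left) in wild-type MPP4 against HSC, with the number of kept genes in brackets and all 11237 kept genes in the bottom row. Mitosis genes stand at one end with 58 of 59 higher, stem cell surface genes at the other with 48 of 54 lower, and 0 of 81 ribosomal protein genes were called.

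Receptors for growth factors changed sides. Of 43 cytokine receptor genes, 19 were higher and 11 lower, against 16.1% and 23.5% of all genes, so the lower share was near that of all genes. Among the lower ones were Epor, the erythropoietin receptor, with 0.692, 1.54 and 0.263 RPKM in MPP4, against 14.5, 16.8 and 11.6 RPKM in HSC, and Il11ra1, the interleukin 11 receptor, with a log2 difference of -1.79. Higher alongside Flt3, Il7r and Csf1r was Il1r1, the receptor for interleukin 1, with 38.8, 31.3 and 37.4 RPKM in MPP4, against 5.19, 3.24 and 2.48 RPKM in HSC. Csf2rb, the shared chain of the interleukin 3, interleukin 5 and GM-CSF receptors, had 21.2, 17.9 and 20.5 RPKM in MPP4, against 8.37, 8.79 and 11.6 RPKM in HSC. Thus the receptors for erythropoietin and interleukin 11 were lower in MPP4, and the receptors for interleukin 7 and M-CSF higher. The receptor for FLK2 ligand was higher too, but it was sorted on.

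Homing receptors and adhesion molecules also went both ways. Of 25 homing genes, 12 were higher and 10 lower, against 16.1% and 23.5% of all genes. Ccr7, the receptor for lymphoid-organ chemokines, had 9.28, 11.9 and 16.04 RPKM in MPP4, against 0.627, 0.667 and 0 RPKM in HSC. Selp, the platelet and endothelial selectin, had 4.07, 2.07 and 1.67 RPKM in MPP4, against 22.8, 9.46 and 15.2 RPKM in HSC. Receptors for sphingosine 1-phosphate split. S1pr1, which lets cells leave tissues, fell, with 2.52, 3.27 and 3.78 RPKM in MPP4, against 15.1, 14.04 and 18.8 RPKM in HSC, while S1pr3 rose, with 7.52, 15.8 and 13.2 RPKM in MPP4, against 1.23, 1.84 and 1.32 RPKM in HSC. Among 15 integrin genes, 5 were higher and 4 lower, the lower share near that of all genes. Itgal, the alpha chain of LFA-1, had 57.1, 53.2 and 55.5 RPKM in MPP4, against 4.51, 2.93 and 1.99 RPKM in HSC, and Itgb7, the beta chain that pairs with alpha 4 for gut homing, had 54.9, 46.2 and 49.2 RPKM in MPP4, against 12.1, 13.6 and 10.5 RPKM in HSC. Itga6, a laminin receptor chain, had 8.89, 9.43 and 7.43 RPKM in MPP4, against 31.4, 25.5 and 28.9 RPKM in HSC.

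**Figure D3:**
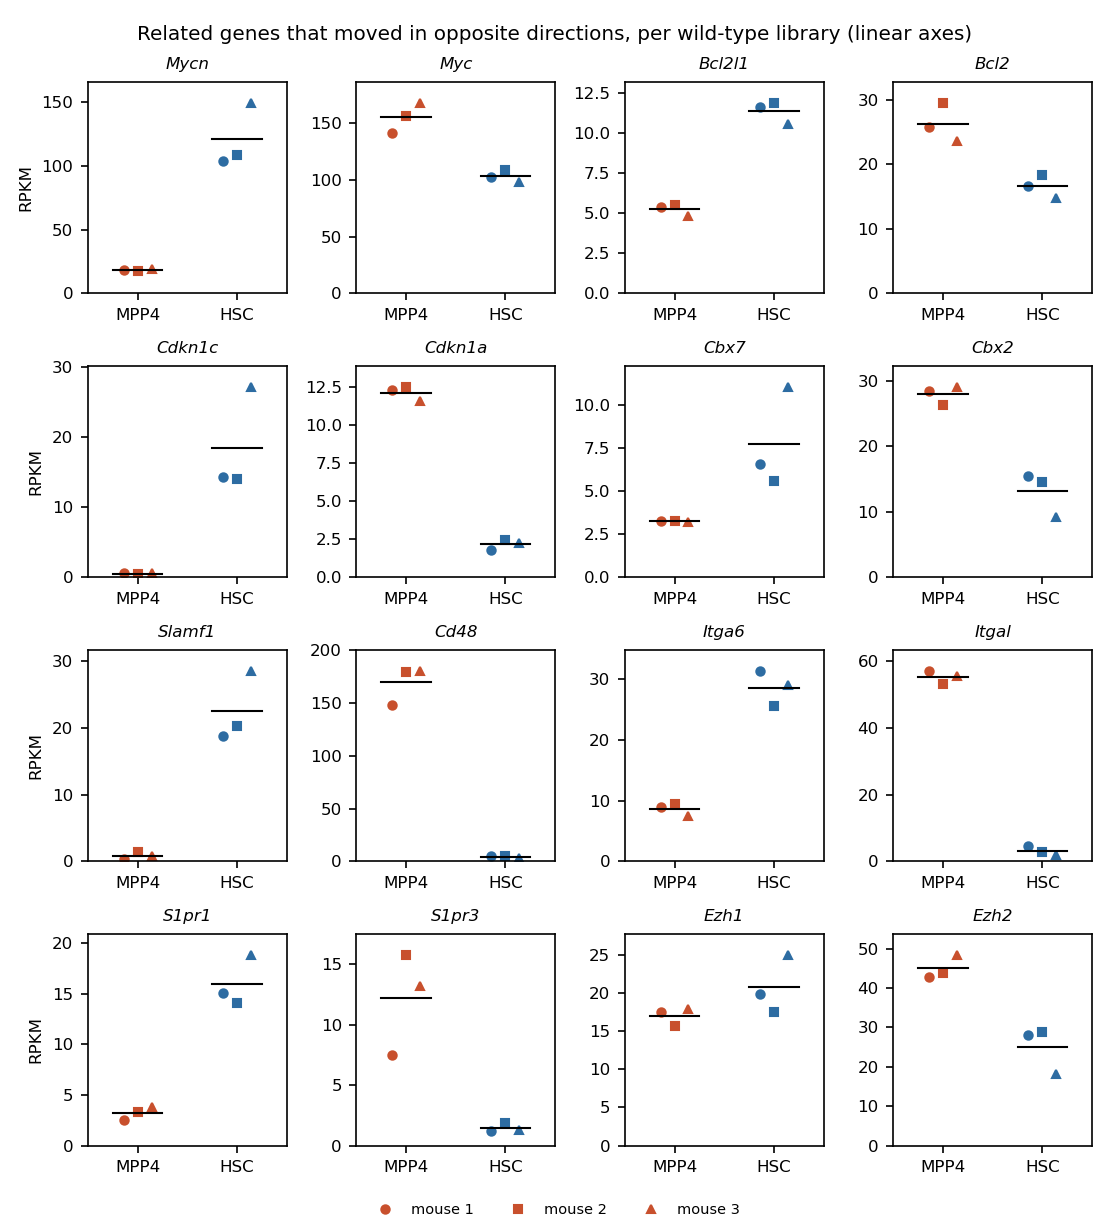
RPKM of 8 pairs of related genes in each wild-type library, MPP4 to the left of HSC in every panel, with symbols for the 3 mice and a black line at the mean of each group. The first gene of each pair was lower and the second higher in MPP4; the pairs were picked after the values were seen.

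Notch, Wnt and TGF-beta pathway genes moved in both directions. Of 22 Notch pathway genes, 5 were higher and 10 lower, against 16.1% and 23.5% of all genes. Notch1, the receptor that starts T-cell fate, had 42.3, 51.9 and 55.6 RPKM in MPP4, against 5.58, 8.12 and 9.75 RPKM in HSC (log2 difference 2.55 ± 0.17, adjusted p = 2.72e-10). Dtx4, a ubiquitin ligase of the pathway, rose by 2.84 and Maml3, a coactivator, by 1.94. Nrarp, an inhibitor that Notch signalling itself induces, fell, with 1.40, 1.57 and 2.69 RPKM in MPP4, against 5.73, 9.87 and 9.25 RPKM in HSC. The receptor and this target therefore moved in opposite directions. In the Wnt list, 2 of 25 were higher and 9 lower, among them the receptors Ryk (-2.24) and Fzd8 (-1.91) and the inhibitor Sfrp1 (-1.90). In the TGF-beta and BMP list, 2 of 29 were higher and 12 lower. The higher count was 4 with the replicate block and 1 with only the 6 wild-type libraries. The coreceptor Tgfbr3 had 1.28, 2.97 and 1.37 RPKM in MPP4, against 33.2, 44.95 and 31.2 RPKM in HSC, and the corepressor Ski had a log2 difference of -1.23. At a filter of 5 RPKM the lower counts were 2 for Wnt and 4 for TGF-beta.

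Genes of cell division were higher in MPP4. Of 59 mitosis genes, 58 were higher (median 1.24), and of 54 DNA replication genes, 42 were higher and 0 lower (median 0.60). Ect2, which places the cleavage furrow, had 25.97, 34.8 and 31.4 RPKM in MPP4, against 10.5, 6.55 and 2.69 RPKM in HSC. Kif20a, a kinesin of the central spindle, had 39.6, 46.3 and 38.01 RPKM in MPP4, against 16.4, 13.7 and 6.03 RPKM in HSC. Rrm2, the cell-cycle subunit of ribonucleotide reductase, had 98.6, 104 and 86.1 RPKM in MPP4, against 37.5, 44.9 and 16.99 RPKM in HSC. The single mitosis gene called lower was Pttg1, securin, with 9.82, 9.02 and 10.02 RPKM in MPP4, against 12.3, 14.2 and 22.6 RPKM in HSC (log2 difference -0.67 ± 0.15, adjusted p = 0.00164), and its difference was -0.42 without HSC of mouse 3. HSC of mouse 3 had the lowest level of the 6 libraries for each of Ect2, Kif20a and Rrm2. Without that library the medians were 0.91 for mitosis and 0.36 for replication genes.

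Inhibitors of the cycle went both ways. Cdkn1c, which encodes p57 and holds stem cells in quiescence, had 0.601, 0.447 and 0.604 RPKM in MPP4, against 14.3, 14.1 and 27.2 RPKM in HSC. Cdkn1a, which encodes the related p21, had 12.3, 12.5 and 11.6 RPKM in MPP4, against 1.78, 2.48 and 2.23 RPKM in HSC (log2 difference 2.06 ± 0.21, adjusted p = 1.68e-07). The groups did not overlap for Cdkn1a, while for Cdkn1c this followed from how it passed the filter. Btg2, an antiproliferative gene, was also higher in MPP4, with 26.9, 19.1 and 24.5 RPKM in MPP4, against 5.11, 4.82 and 2.64 RPKM in HSC. Of the 28 CDK inhibitor and quiescence genes, 6 were higher and 11 lower, against 16.1% and 23.5% of all genes. The higher count was 2 without MPP4 of mouse 3 and 3 with only the 6 wild-type libraries. Among E2F factors, E2f8 (1.32) and E2f2 (1.12) rose and E2f5 (-0.70) fell.

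The Myc family divided likewise. Mycn had 18.03, 17.4 and 19.2 RPKM in MPP4, against 104, 109 and 149.8 RPKM in HSC (log2 difference -2.65 ± 0.34, adjusted p = 2.78e-06), Myc had 141, 156 and 168 RPKM in MPP4, against 102, 109 and 97.9 RPKM in HSC (log2 difference 0.58 ± 0.11, adjusted p = 0.000332), and Mycl had 4.001, 1.81 and 2.66 RPKM in MPP4, against 0.0510, 0 and 0.0280 RPKM in HSC. All encode transcription factors of growth. Genes for the cytoplasmic ribosome did not follow: 0 of 81 ribosomal protein genes were called in limma (median 0.01). Of the 81, 4 had an unadjusted p under 0.05, and 1 was called with the replicate block. Of 54 ribosome biogenesis genes, 7 were higher (median 0.10), no more than the 16.1% of all genes. The biogenesis count was 15 after median-ratio scaling and 1 to 4 without HSC of mouse 1 or 3 or any MPP4 library.

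Metabolic genes moved both ways. Of 29 glycolysis genes, 15 were lower and 6 higher (3 higher without MPP4 of mouse 1), against 23.5% and 16.1% of all genes. Slc2a3, a glucose transporter, had 14.03, 14.2 and 11.4 RPKM in MPP4, against 32.96, 42.2 and 45.7 RPKM in HSC, Aldoc, an aldolase, had 3.79, 2.50 and 4.48 RPKM in MPP4, against 14.1, 10.4 and 19.1 RPKM in HSC, and Ldhb, a lactate dehydrogenase chain, had 67.2, 34.3 and 52.6 RPKM in MPP4, against 94.1, 84.2 and 119 RPKM in HSC. Pgam1, phosphoglycerate mutase, went the other way, with 96.6, 109 and 97.5 RPKM in MPP4, against 55.8, 65.3 and 57.9 RPKM in HSC. Of 75 respiratory chain and ATP synthase genes, 10 were higher, no more than the 16.1% of all genes, and 1 lower (0 lower with the replicate block). Ndufa4 (0.86) and Cox5a (0.71) led the higher ones, and 20 were higher after median-ratio scaling. Detoxification genes were lower in 21 and higher in 4 of 42, with 2 higher without MPP4 of mouse 3, and 9 were lower by at least 1 log2. Gstt1, a glutathione transferase, had 0.996, 1.998 and 1.67 RPKM in MPP4, against 17.8, 25.3 and 25.9 RPKM in HSC, and Sult1a1, a sulfotransferase, had 0.998, 1.21 and 0.668 RPKM in MPP4, against 18.7, 37.9 and 78.1 RPKM in HSC. Mgst2, a microsomal glutathione transferase, rose by 1.97. Of 45 lysosome and autophagy genes, 14 were lower and 5 higher. Cathepsin genes split, with Ctsl at 11.8, 7.45 and 12.6 RPKM in MPP4, against 28.6, 26.3 and 39.02 RPKM in HSC and Ctss at 48.1, 39.9 and 48.4 RPKM in MPP4, against 7.67, 9.45 and 11.5 RPKM in HSC.

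Chromatin and survival genes moved both ways. Of 38 DNA methylation and polycomb genes, 8 were higher and 6 lower, shares near those over all genes (16.1% and 23.5%). Cbx2, a chromodomain subunit of polycomb complex 1, had 28.5, 26.3 and 29.1 RPKM in MPP4, against 15.5, 14.6 and 9.24 RPKM in HSC, and its alternative Cbx7 had 3.29, 3.31 and 3.20 RPKM in MPP4, against 6.58, 5.59 and 11.1 RPKM in HSC. Ezh2, the polycomb methyltransferase of dividing cells, had 42.9, 43.8 and 48.4 RPKM in MPP4, against 28.1, 28.9 and 18.1 RPKM in HSC (log2 difference 0.85 ± 0.14, adjusted p = 7.06e-05), and its paralogue Ezh1 had 17.4, 15.6 and 17.8 RPKM in MPP4, against 19.8, 17.4 and 24.98 RPKM in HSC (log2 difference -0.26 ± 0.10, adjusted p = 0.0417), with groups that overlapped. Of 12 Bcl2 family genes, 4 were higher and 2 lower (Bcl2l1, and Bbc3, which lost its call under several alternatives). The survival genes Bcl2 and Bcl2l1 (Bcl-xL) moved apart, with Bcl2 at 25.7, 29.5 and 23.6 RPKM in MPP4, against 16.7, 18.3 and 14.8 RPKM in HSC and Bcl2l1 at 5.39, 5.51 and 4.83 RPKM in MPP4, against 11.6, 11.9 and 10.6 RPKM in HSC. The death-promoting genes Bid (0.85) and Bcl2l11, which encodes Bim (0.81), rose.

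Immediate early genes, which respond within minutes to stimulation and to cell handling, moved both ways, with 7 of 27 higher and 9 lower. Over all genes the shares were 16.1% and 23.5%. Egr1, a growth-response factor, had 1.26, 2.08 and 2.71 RPKM in MPP4, against 12.8, 12.02 and 31.8 RPKM in HSC, and Dusp5, a phosphatase that limits ERK signalling, had 33.4, 27.2 and 37.6 RPKM in MPP4, against 7.90, 5.50 and 11.8 RPKM in HSC. Gadd45g, a stress sensor, had 0.478, 0.751 and 0.40 RPKM in MPP4, against 9.70, 6.88 and 11.7 RPKM in HSC. The part of cell handling in these values was not tested. Of 26 cholesterol synthesis genes, 1 was higher and 7 lower, the lower share near the 23.5% of all genes. The lower count was 4 without MPP4 of mouse 2. It was 12 with libraries weighted in the fit, where 3115 of all genes were lower. The sterol carrier gene Stard4 had 7.45, 7.45 and 10.6 RPKM in MPP4, against 33.4, 30.5 and 29.7 RPKM in HSC.

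Interferon-stimulated genes and MHC class I genes went both ways. Of 59 interferon-stimulated genes, 17 were lower and 3 higher, against 23.5% lower and 16.1% higher over all genes, and the lower count was 11 without MPP4 of mouse 2. The higher count was 1 without MPP4 of mouse 1 or HSC of mouse 2, and 5 with the replicate block. Ifitm1, a membrane restriction factor, had 137, 152 and 200 RPKM in MPP4, against 319, 459 and 783 RPKM in HSC. Of 24 MHC class I genes, 9 were lower and 5 higher, with 5 lower without HSC of mouse 3 or with only the 6 wild-type libraries. The peptide transporter Tap2 (0.76) and the immunoproteasome subunit Psmb8 (0.69) rose, while H2-T23, a nonclassical class I gene, had a log2 difference of -0.71. The Gimap GTPases of lymphocyte survival, a gene cluster, did not move as a block. Gimap7 had 14.8, 22.2 and 24.96 RPKM in MPP4, against 3.64, 5.19 and 3.79 RPKM in HSC, and its neighbour Gimap3 had 2.47, 0.546 and 1.61 RPKM in MPP4, against 6.14, 9.11 and 23.6 RPKM in HSC. Of the 8 kept, 1 was higher and 5 were lower.

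Transcripts of other blood cells differed between libraries of one population. Of 17 genes on the neutrophil granule list, 4 were higher and 0 lower in limma (2 lower with the replicate block). At an unadjusted p under 0.05 there were 5 of the 17. The 4 higher genes were Mpo, Ctsg, Gfi1 and Ltb4r1, of which Gfi1, a repressor, and Ltb4r1, a receptor, are not granule proteins. The list median was 0.12, or 1.92 without HSC of mouse 2 and -0.26 without HSC of mouse 3. S100a8, an abundant neutrophil protein, had 160.4, 83.2 and 3.86 RPKM in MPP4 and 39.4, 553 and 5.67 RPKM in HSC, and Ngp, a secondary granule protein, had 93.3, 14.4 and 12.01 RPKM in MPP4 and 4.46, 206 and 0.425 RPKM in HSC. The high values of both lay in HSC of mouse 2 and MPP4 of mouse 1. Mpo and Ctsg did not follow them, since neither was above 5 RPKM in HSC of mouse 2. Prtn3, another azurophil granule protease, was abundant everywhere, with 133, 93.4 and 110.5 RPKM in MPP4 and 91.99, 98.8 and 158 RPKM in HSC (log2 difference -0.02 ± 0.27, adjusted p = 0.954). Globin transcripts also varied within both populations. Hbb-bs had 1480, 124 and 727 RPKM in MPP4 and 63.2, 2357 and 83.5 RPKM in HSC, highest in HSC of mouse 2 and MPP4 of mouse 1 and also high in MPP4 of mouse 3, which had the lowest S100a8, with reads shared between near-identical globin genes uncertain. Erythroid list sums were 716 to 3737 RPKM in MPP4 and 1316 to 6423 RPKM in HSC. Of 30 erythroid genes, 12 were lower, 1 higher and the rest not called, where 23.5% of all genes were lower and 16.1% higher. Genes of dendritic cells and class II presentation summed to 1384 to 1534 RPKM in MPP4 and 501 to 631 RPKM in HSC, and B-lineage genes to 138 to 183 RPKM in MPP4 and 64.6 to 86.9 RPKM in HSC. Of 10 B-lineage genes, 5 were higher. Of 13 stromal and endothelial genes, 7 were lower and 4 higher, and several of these, such as Tek and Esam, are also stem cell genes. Plasma cell genes summed to 144 to 184 RPKM in MPP4 and 175 to 247 RPKM in HSC, and mast cell genes to 542 to 587 RPKM in MPP4 and 950 to 1024 RPKM in HSC. The part of neutrophil and erythroid RNA in the results was not tested. Without both libraries of mouse 2, a choice made after the data were seen, 1434 genes were higher and 2048 lower.

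**Figure D4:**
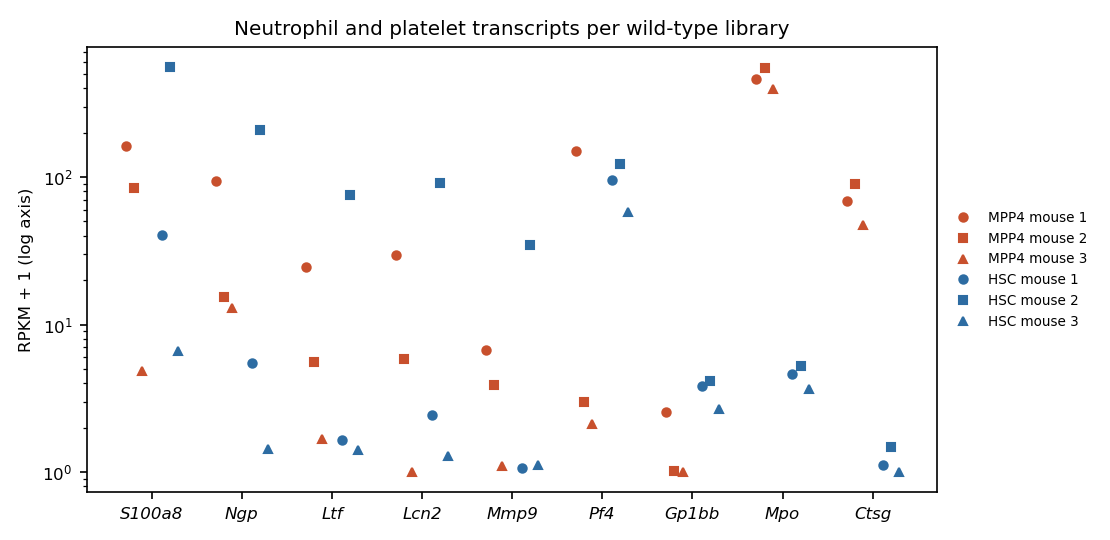
RPKM + 1 on a log axis of neutrophil genes, platelet genes and the myeloid genes Mpo and Ctsg in each wild-type library, MPP4 (orange) to the left of HSC (blue) and symbols for the 3 mice. S100a8 and Ngp are highest in HSC of mouse 2, Pf4 is highest in MPP4 of mouse 1, and Mpo separates the populations in all mice. Ctsg passed the filter only through MPP4, so its separation was set by the filter.

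Sequence features of the moved genes were compared as a description. A promoter entry was found for 429 genes higher and 644 lower by at least 1 log2. The mean CpG observed-to-expected ratio was 0.596 for higher and 0.556 for lower genes, against 0.734 over 9095 kept genes and 0.464 over 27025 promoters in the table. Genes that moved in either direction thus had CpG-poorer promoters than kept genes as a whole. The GGAA core was in 95.6% of higher, 95.2% of lower and 95.7% of kept promoters. TGTGGT was in 19.1% of higher, 11.8% of lower and 12.5% of kept promoters, and 16.9% of all promoters. CANNTG was in 70.2%, 69.3% and 62.5% of these sets, and 72.1% of all promoters. GATAA was in 18.6% of higher and 17.7% of lower, against 15.7% of kept and 25.8% of all promoters.

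The Etv6 mutant mice went through the same step, with 4 MPP4 and 4 HSC libraries and 4407 genes (39.2%) called, 1804 higher (16.1%) and 2603 lower (23.2%). All 1387 genes called in wild type with a log2 difference of at least 1 had the same sign in the mutant, and 1356 were called there. These genes were chosen on wild-type values, and the median ratio of mutant to wild-type difference over them was 0.86. Over the 1186 genes chosen the same way on mutant values, the median ratio of wild-type to mutant difference was 1.08. Dntt had 527 ± 50.3 RPKM in mutant MPP4, against 2.67 ± 1.21 RPKM in mutant HSC, a log2 difference of 7.22 ± 0.18 (levels are mean ± SD, n = 4 each). Mpo had 363 ± 54.3 RPKM in mutant MPP4, against 31.9 ± 58.1 RPKM in mutant HSC, with a wide spread among mutant HSC. Kcng1 had a difference of 4.04 ± 0.25 in mutant mice, Tgm2 of -5.40 ± 0.20, Cdkn1c of -3.06 ± 0.15 and Cdkn1a of 1.96 ± 0.18. The test of the difference between the steps called 0 genes (0.0%) in limma, with 425 at an unadjusted p under 0.05.

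**Figure D5:**
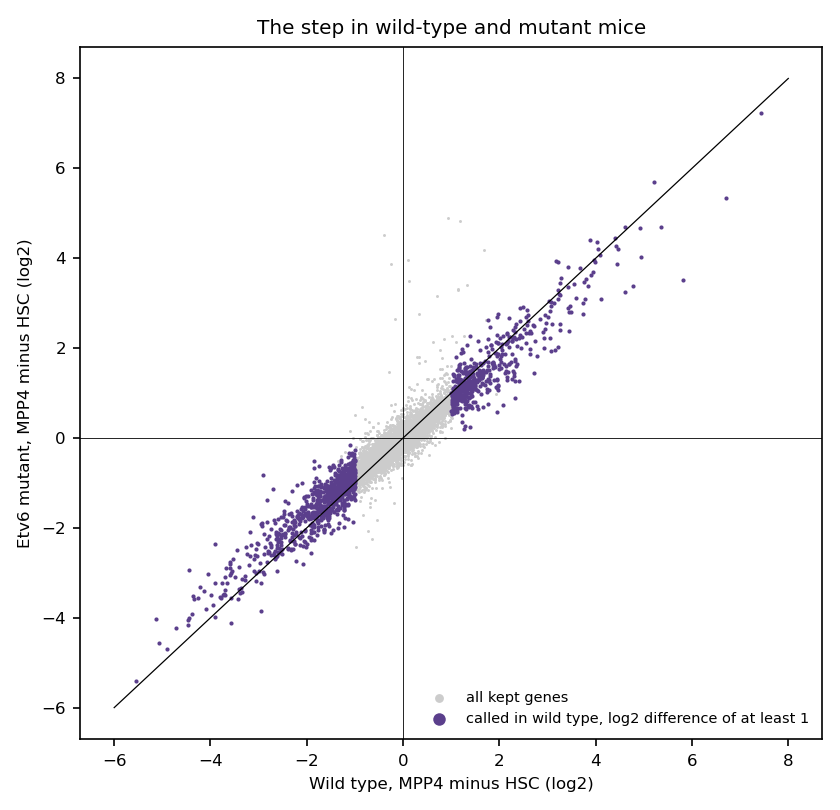
Log2 difference of MPP4 minus HSC per gene in Etv6 mutant mice (y axis, 4 libraries a group) and wild-type mice (x axis, 3 libraries a group), with the line of equality. The 1387 genes called in wild type with a log2 difference of at least 1 are purple, and all lie on the same side of 0 in both.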

How the data were processed

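Values were deposited by the authors as RPKM in 1 table of 21 libraries and 11628 genes. Per the labels' protocols, sorted cells went into SMART-seq v4 and NexteraXT libraries, and alignment to mm10 used STAR, per the submitters' processing notes. Not given in the sources used here: the counting tool, annotation, strand setting and STAR version. SMART-seq does not mark strand, so overlapping genes cannot be told apart, and how reads of near-identical genes were counted is not stated. RPKM holds no depth: low values were examined for one-read steps, and no bin of ratios held more than 7.94% of genes.

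Genes were kept at 1 RPKM in 3 of the 6 wild-type libraries (391 removed; 16 symbols turned to dates were restored through Entrez identifiers). Group means of 21 libraries were fitted in limma 3.58.1 (R 4.3.3) to log2(RPKM + 1) with a variance trend, two-sided, Benjamini-Hochberg adjusted over all kept genes, with a pseudocount of 1. A scale of log2(RPKM + 1) understates changes of low genes. The wild-type replicate numbers were taken as mice because age and sex agree between populations within each number. Same-numbered libraries correlated in their deviations at 0.105, 0.15 and 0.341, against -0.242 to 0.065 for different numbers. Deviations were taken from means of 3 libraries, so these values depend on one another. Shared age or sex could give them too, so it is not shown that a number stands for 1 mouse. P-values and standard errors use the spread within groups, pooled over all 21 libraries, including mutant and common lymphoid progenitor ones. They are therefore not the spread of the wild-type mice alone. For Mpo the standard error was 0.82, while its differences in the 3 mice were 6.65, 6.70 and 6.76. Outside the replicate block the fit has no term for the mouse. The replicates were taken as 3 mice a population.

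The gene lists, members and rule for named genes were chosen with earlier results of these data known. Named were the genes with the largest differences, the leading and opposing called members of each list, gate genes and Etv6, apart from a few genes not reported here. Others (C1qa, C1qb, Cd79a, Ebf1, Ezh1, Ezh2, Gfi1b, Gp9, Hbb-bs, Hoxa9, Hoxb5, Myc, Ngp, Pf4, Prtn3, Rag1, S100a8, S1pr1, Thbs1, Vpreb1, the other genes drawn with them in figures and those of the closing section) were named after their values were seen. The scripts were tested on simulated data. Promoters and coordinates are RefSeq, GRCm38.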

Additional observations from a re-analysis of the deposited data

How the results depend on the processing

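The number of called genes (4453) stayed within 1.5 times under every alternative tried: 3482 without both libraries of mouse 2 and 3577 at a filter of 5 RPKM, and 3693 to 4238 when each library was left out in turn, with HSC of mouse 3 lowest. With the replicate block, the mouse as a term, 4492 genes were called (1831 higher, 2661 lower), and the counts it moved by more than 1.5 times are given with their lists, apart from 1 ribosome biogenesis gene lower, 2 plasma cell genes higher and 1 imprinted gene higher; among named genes Cdkn2c, Dkc1 and Ndufv3 lost their calls and Mzb1 and Txndc5 gained them. With only the 6 wild-type HSC and MPP4 libraries fitted, 3959 genes were called (1532 higher, 2427 lower). That setting moved 14 of 78 list counts by more than 1.5 times, among them ribosome biogenesis genes, with 3 higher. The count with a log2 difference of at least 1 was 681 instead of 1387 with a pseudocount of 5 RPKM, because the larger pseudocount shrinks the differences of low genes. Quantile normalization gave 4310 genes, 2171 higher and 2139 lower, and median-ratio scaling 2156 and 2322, against 1809 and 2644, so the share of higher genes depends on scaling. Of 222 named genes (199 at the filter of 5 RPKM), none reversed, and 198 to 222 kept their side of the threshold per alternative. Weak under several were, among others, Cdkn2c, Bbc3, Xbp1, Gimap6, Dkc1, Nolc1, Lyar, Sp100, Gpx1, Klf2, Mx1 and Ndufv3. The step in mutant mice gave 4780 calls with the replicate block, against 4407.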

Other observations

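Several lowered genes are imprinted, meaning that one parental copy is silenced. This list was assembled after the values had been seen, so its share of lower genes is no support for a shift of imprinted genes. Of 25 kept, 14 were lower in MPP4 and 2 higher, with a median log2 difference of -0.49. Over all genes the shares were 23.5% and 16.1%. The higher count was 0 without MPP4 of mouse 3 or HSC of mouse 1, and 1 without MPP4 of mouse 1, HSC of mouse 2 or HSC of mouse 3, or with the replicate block. Cdkn1c, Slc22a18 and Phlda2, neighbours at chromosome 7, 143458339 to 143503145, were all lower. Phlda2 had 0.175, 0.978 and 0 RPKM in MPP4, against 12.99, 22.4 and 23.1 RPKM in HSC, and Grb10 had 0.368, 0.845 and 0.543 RPKM in MPP4, against 36.1, 36.8 and 28.6 RPKM in HSC. Igf2r, a receptor that clears growth factor, was one of the higher genes, with 15.4, 15.2 and 20.1 RPKM in MPP4, against 5.16, 10.1 and 8.07 RPKM in HSC.

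In several places at least 3 kept genes in a row along a chromosome moved the same way by at least 1 log2. Cdc6, Rara, Top2a, Igfbp4 and Ccr7 on chromosome 11, 98907709 to 99155077, were all higher. Plekhg6, Cd9 and Vwf on chromosome 6, 125362651 to 125686679, were all lower. No comparison with chance was made. A run of 6 histone genes on chromosome 13 was higher, and these near-identical genes are uncertain individually.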
